A study of Mus musculus with 9 samples.

Results

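Slc2a3 encodes a high-affinity facilitative glucose transporter, and Pdk1 encodes a kinase that switches off pyruvate dehydrogenase by phosphorylating it. Both genes were taken by symbol, as the probes annotated to that gene alone, and each had 1 probe, so 2 of 7117 genes on the arrays are described. They were chosen with earlier results of these data known: Slc2a3 had 1 of the lowest ratios at 15 days, and both genes stood out in the difference between the ages. Their values at 15 days and their difference between ages are therefore given as a description, and since that difference also uses 12-day arrays, no test was made for either gene at 12 days.

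Total RNA from the whole testis of juvenile mice was compared on 2-colour spotted cDNA arrays, on which 1 Spo11-/- and 1 wild type sample compete for each spot. SPO11 makes the DNA double-strand breaks that start meiotic recombination. There were 4 arrays from mice of 15 days, all with knockout RNA in Cy3. Another 5 arrays came from mice of 12 days, with knockout RNA in Cy5 on replicates 1, 4 and 5 and in Cy3 on replicates 2 and 3. The design text tells of different mouse pairs from 1 litter and of 4 replicates, whereas 5 arrays carry the 12-day label, and whether any of these share RNA is not known. The sources used here do not give the knockout allele, the strain or which arrays shared animals, so the spread between arrays may be partly technical. In whole testis, fewer cells of a type and less RNA per cell cannot be told apart.

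Cells take up glucose through the SLC2A family of transporters and break it down to pyruvate by glycolysis. Pyruvate is then either reduced to lactate or turned into acetyl-CoA by the mitochondrial pyruvate dehydrogenase complex, and the PDK kinases and PDP phosphatases set which route it takes. In the testis, Sertoli cells take up glucose and release lactate, on which meiotic germ cells largely live. Both Slc2a3 and Pdk1 are known targets of the hypoxia-inducible factor in other tissues.

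The sign of the ratios needs care. If the deposited numbers are Cy5 over Cy3, the labels make every 15-day ratio wild type over knockout, and a gene below 0 is then higher in the knockout. The 15-day arrays nevertheless correlated below 0 across probes with the 12-day arrays that carried knockout RNA in Cy3, with r of -0.38 to -0.33 against replicate 3 and of -0.25 to -0.11 against replicate 2. With knockout in Cy5 at 12 days the correlations were -0.23 to 0.031 over 12 pairs of arrays. Under the other reading, in which the 15-day numbers are knockout over wild type, a gene below 0 is lower in the knockout, and the 12-day arrays that share this direction are those with knockout in Cy5. The correlations do not settle the reading. All ratios are therefore given with their deposited sign, and both readings follow where a direction matters. Both take the 12-day ratios as Cy5 over Cy3, which is not known either. Values are log2 ratios centred on the median of each array, and not levels. Of 16128 probes, between 72.1% and 91.3% had a value on an array. No probe named Spo11, so the labels could not be checked with the targeted gene.

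Slc2a3 lay far below 0 on every array at 15 days, with log2 ratios of -1.59, -2.47, -3.09 and -1.48 on replicates 1 to 4. The value of replicate 3 was the lowest of all 14724 probes with a value on that array. On replicates 1, 2 and 4 Slc2a3 ranked 15th, 5th and 4th from the lowest of 14013, 14551 and 14716 probes. The 4 arrays thus differed in size but not in sign. The mean was -2.16 ± 0.76 (SD, n = 4), a 4.46-fold difference between the channels, and the second lowest mean of 6958 genes. This is higher in the knockout if the values are Cy5 over Cy3, and lower in it if they are knockout over wild type.

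At 12 days the same spot had ratios above 0 on all 5 arrays, in both dye orientations. With knockout in Cy5 the log2 ratios were 0.32, 0.08 and 0.61 on replicates 1, 4 and 5. With knockout in Cy3 they were 0.17 and 2.36 on replicates 2 and 3. The value of 2.36 was the highest of all 14405 probes with a value on that array, where the 4 other 12-day arrays had ratios of 0.08 to 0.61. Thus 1 array carried most of the 12-day signal, and the orientations overlapped, since replicate 2 lay between replicates 4 and 1. Among 5616 genes with 5 values at 12 days, 7.43% lay above 0 on all of them and 5.43% below 0.

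The means of the orientations were 0.34 ± 0.27 (SD, n = 3) with knockout in Cy5 and 1.27 ± 1.55 (SD, n = 2) with knockout in Cy3. In Cy5 over Cy3 ratios, swapping the dyes turns the sign of a difference between genotypes but not that of a spot's preference for a dye. The orientation-independent part of the Slc2a3 ratio, that is the average of both means, was 0.80 (SE 0.30), and 1 gene, Khsrp, had a higher average (0.90). Khsrp is named after its value was seen. Without replicate 3 the average was 0.25 and without replicate 2 it was 1.35. The knockout part, 0.5 times the difference of the means (Cy5 minus Cy3), was -0.46 (SE 0.30). Without replicate 3 it was 0.08, so its sign rested on that array. If the 12-day values are knockout over wild type instead, the 2 parts change places, for Pdk1 as well. A 12-day fit of the ratios as deposited, without a dye term, called 0 features.

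Pdk1 had smaller ratios, of the opposite sign to Slc2a3 at 15 days. They were 0.34, 0.90 and 0.70 on replicates 2, 3 and 4, and the spot had no value on replicate 1. The mean was 0.65 ± 0.28 (SD, n = 3), a 1.57-fold difference, and 80 genes of 6958 had a higher mean. On each of the 3 arrays the Pdk1 ratio was higher than that of 82.4% to 97.8% of probes, so it lay far less to the edge than Slc2a3.

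At 12 days the Pdk1 ratios were 0.10, -0.08 and 0.30 with knockout in Cy5, on replicates 1, 4 and 5. They were -0.29 and -0.38 with knockout in Cy3, on replicates 2 and 3. Unlike those of Slc2a3, the orientations did not overlap, and both arrays with knockout in Cy3 lay below all 3 with knockout in Cy5. This order was seen in 6.96% of the 5616 genes, and the reverse order in 9.97%. The means were 0.11 ± 0.19 (SD, n = 3) and -0.34 ± 0.06 (SD, n = 2). The knockout part was 0.22 (SE 0.09) and the orientation-independent part -0.11 (SE 0.09). Read as Cy5 over Cy3, the knockout over wild type ratio of Pdk1 was thus above 0 on 4 of the 5 arrays, by 0.10 to 0.38, and -0.08 on replicate 4. Leaving out each 12-day array in turn gave a knockout part of 0.17 to 0.27.

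**Figure D1:**
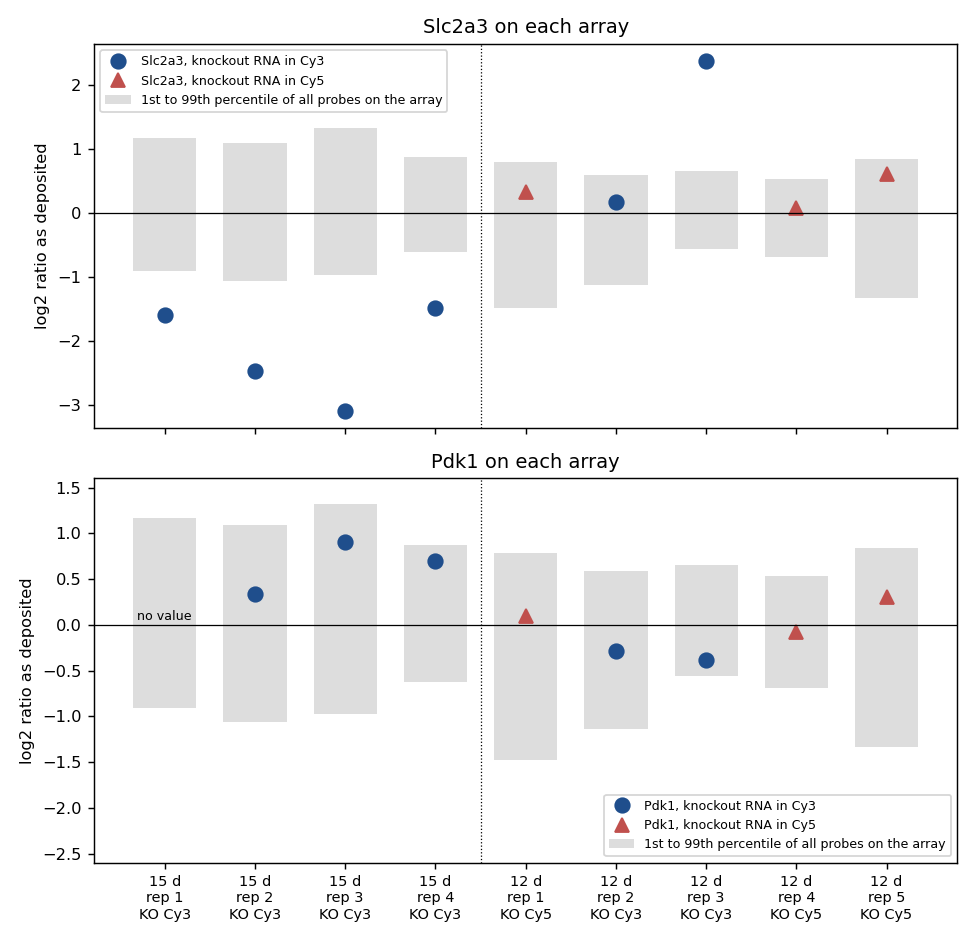
Deposited log2 ratios of Slc2a3 (top) and Pdk1 (bottom) on each of the 9 arrays, with circles where knockout RNA was in Cy3 and triangles where it was in Cy5; grey bars span the 1st to the 99th percentile of all probes on the array. Slc2a3 lies below the bar on all 4 arrays at 15 days and far above it on 12-day replicate 3 (2.36), while Pdk1 stays within the bars.

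**Figure D2:**
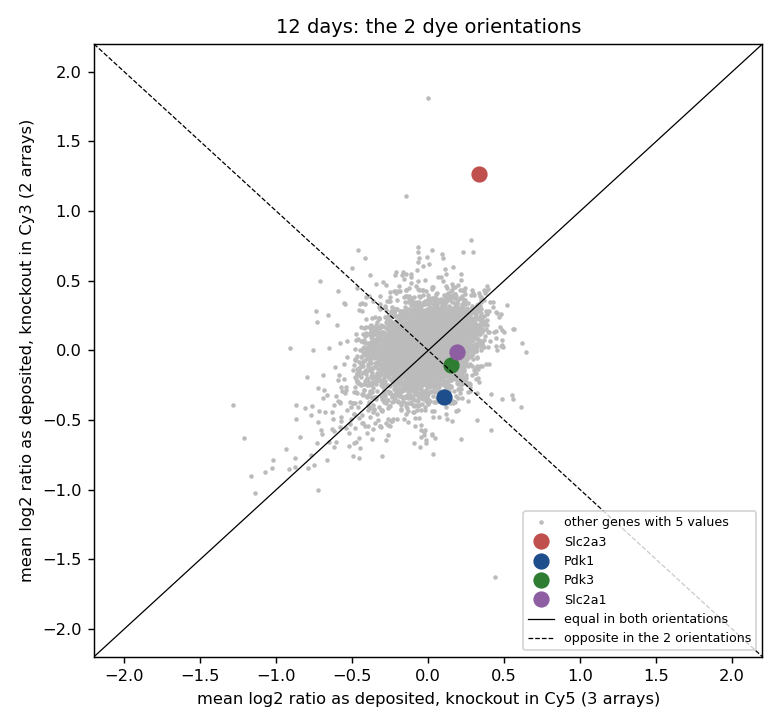
Mean log2 ratio at 12 days over the 2 arrays with knockout in Cy3 (y axis) against that over the 3 arrays with knockout in Cy5 (x axis), 1 point for each of 5616 genes with 5 values. Slc2a3 stands apart at 0.34 and 1.27, above the solid line of equal values, and Pdk1 lies below 0 on the y axis alone.

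The comparison of the ages sets the 15-day arrays against 12-day replicates 2 and 3, since those share their dye orientation, and the other 12-day arrays have no weight in the estimate. For Slc2a3, the 15-day arrays (-3.09 to -1.48) and the 12-day arrays (0.08 to 2.36) did not overlap, and 9.79% of 5544 genes had all 15-day values below all 12-day values. Below 0 on every 15-day array and above 0 on every 12-day array was the pattern of 2.72% of these genes. For Pdk1 the 15-day values (0.34 to 0.90) lay above the 12-day values (-0.38 to 0.30), as in 5.05% of the genes.

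Of 6144 genes, 1.69% had a knockout effect that was higher at 15 than at 12 days and 0.716% a lower one, read as Cy5 over Cy3, by limma's adjusted p over all 9851 features (1.36% and 1.14% of features). On that reading the difference for Slc2a3 (15 minus 12 days) was 3.42 (SE 0.56), and with the 15-day sign turned it was -0.89 (SE 0.56). Without 12-day replicate 3 these estimates were 2.33 and -1.99. Without replicate 2 they were 4.52 and 0.20, so under the turned reading the sign also rested on 1 array. For Pdk1 the same difference was -0.98 (SE 0.21) as Cy5 over Cy3 and 0.31 (SE 0.21) with the sign turned. The ratios of the 15-day arrays can also be freed of the orientation-independent part measured at 12 days. Slc2a3 then had a knockout over wild type ratio of 2.96 if the values are Cy5 over Cy3, and of -1.36 if they are knockout over wild type, and Pdk1 of -0.76 and 0.53. Without 12-day replicate 3 the values of Slc2a3 were 2.41 and -1.90, and without replicate 2 they were 3.51 and -0.81. Under either reading the 2 genes thus kept opposite signs at 15 days. These values assume that the 12-day ratios are Cy5 over Cy3 and that a dye preference was the same at both ages. Neither was tested.

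The spots of Slc2a3 and Pdk1 lie 38 places apart in the order of the probe list, so they share most of their neighbours. Taken over 100 spots on either side, the local median was 0.03 to 0.30 around Slc2a3 at 15 days, and 0.16 to 0.30 around Pdk1 on the 3 arrays with a value. With that median subtracted, Slc2a3 lay at -3.27 to -1.62 on the 4 arrays. Pdk1 lay at 0.18, 0.66 and 0.40, with a mean of 0.41 in place of 0.65. On 12-day replicate 5, where the nearby median was 0.41, the Pdk1 ratio went from 0.30 to -0.11. The part of such a shift in the Pdk1 ratios was not tested beyond this subtraction.

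Among 118 other genes of glucose and pyruvate metabolism and the hypoxia response, 68 were on the arrays and tested. At 15 days 6 of them passed a limma adjusted p of 0.05 over all 12198 features, 2 above 0 and 4 below, or 8.82%, against 11.2% of all 6958 genes. Of all genes 4.04% passed above 0 and 7.2% below. Over all features 860 passed above 0 (7.05%) and 655 below (5.37%), or 745 and 850 after quantile normalization. At 12 days 0 of 63 passed, as did 0 of all 10075 features by limma, with 269 (2.67%) at an unadjusted p under 0.05. The shares of called genes in the lists as a whole were thus no higher than among all genes. All 6 calls were lost without 15-day replicate 3 (limma adjusted p from 0.066 to 0.092), and 3 of them remained without replicate 1, 2 without replicate 2 and 3 without replicate 4. In a joint fit of both ages with a dye term, read as Cy5 over Cy3, 4 genes passed, of which 2 (Dlat and Sdhd) were among the 6. With the 15-day sign turned in that fit, 0 passed.

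The other sugar transporters did not share the ratio of Slc2a3. None of 4 measured passed at 15 days, and their median was 0.01. Slc2a1, the widely expressed basal glucose transporter, had log2 ratios of -0.35, -0.30, 0.40 and 0.02, and a mean of -0.06 (SE 0.14). The arrays fell on both sides of 0. Slc2a4, the insulin-responsive transporter, had a mean of 0.07 (SE 0.10), and the sugar transporter Slc50a1 a mean of 0.05 (SE 0.10). Slc2a8 had a mean of -0.04 (SE 0.11) from probes of opposite sign (0.33 and -0.40). With the probes of Slc2a8 averaged, on no 15-day array did any of the 4 lie more than 0.40 from 0, where Slc2a3 lay at -1.48 or lower.

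Among regulators of pyruvate dehydrogenase, the kinase gene Pdk3 resembled Pdk1. Its log2 ratios at 15 days were 0.30, 0.35, 0.98 and 0.78, above 0 on every array, and its mean was 0.60 (SE 0.13, 1.52-fold, limma adjusted p = 0.024). Of the 4 genes of this list tested, it alone passed. Pdk3 no longer passed without replicate 3 (0.48, limma adjusted p = 0.092) or without replicate 4 (0.54, limma adjusted p = 0.075). The phosphatases, which act against the kinases, did not pass: Pdp1 had a mean of -0.10 (SE 0.11) and Pdp2 of 0.36 (SE 0.14). Pdpr, the regulatory subunit of the phosphatase, had a mean of 0.15 (SE 0.11). At 12 days the knockout part of Pdk3 was 0.13 (SE 0.10) and did not pass.

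The RefSeq promoter windows of the kinase genes are shown because the ratios of both lay above 0 at 15 days. Each window holds the 250 bases before the annotated start (GRCm38.p6), at chr2:71872974-71873223 on the plus strand for Pdk1 and chrX:93832151-93832400 on the minus strand for Pdk3. Capitals mark the core of the site of the hypoxia-inducible factor, searched as ACGTG and GCGTG on both strands.
Pdk1: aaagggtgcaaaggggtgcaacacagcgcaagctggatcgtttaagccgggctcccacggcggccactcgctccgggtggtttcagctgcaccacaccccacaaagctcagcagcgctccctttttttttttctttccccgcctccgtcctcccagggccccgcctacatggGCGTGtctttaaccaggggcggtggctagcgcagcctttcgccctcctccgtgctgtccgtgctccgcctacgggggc
Pdk3: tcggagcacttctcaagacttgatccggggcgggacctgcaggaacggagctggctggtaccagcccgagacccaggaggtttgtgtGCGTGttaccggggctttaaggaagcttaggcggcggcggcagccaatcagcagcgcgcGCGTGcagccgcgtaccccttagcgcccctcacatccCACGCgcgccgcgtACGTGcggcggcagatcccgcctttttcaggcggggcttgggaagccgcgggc

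The Pdk1 window holds GCGTG 1 time and ACGTG 0 times, and its GC content is 64.0%. The Pdk3 window holds GCGTG 3 times and ACGTG 1 time at a GC content of 67.6%. Of 32851 promoter windows of this length 38.6% hold at least 1 of these cores, so the presence of 1 is common. GCGTG stands 2 or more times in 8.63% of the windows, as it does in that of Pdk3. A second annotated start of Pdk1 has a window with neither core. A match is a run of letters and does not show that a factor binds there.

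Among the genes of the pathway itself, the hypoxia factor list held 11 measured genes and none passed at 15 days. Hif1a, the regulated subunit, had the smallest p of that list, with a mean of 0.33 (SE 0.11, limma adjusted p = 0.071), and its partner Arnt had a mean of 0.23 (SE 0.11). The median of the list was 0.07, against -0.02 over all genes. With nearby spots subtracted Hif1a did pass, at 0.41 (limma adjusted p = 0.0335).

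Subunits of the pyruvate dehydrogenase complex lay on both sides of 0 at 15 days. The list of 7 measured genes also held the pyruvate carrier Mpc1 and the carboxylase Pcx, and 1 passed above 0 and 2 below. Dlat, the acetyltransferase subunit, lay at -0.50, -0.46, -0.39 and -0.34, with a mean of -0.42 (SE 0.10, limma adjusted p = 0.027). Its 3 probes disagreed, with means of -0.31, -1.14 and 0.18. Pdhx, which anchors the dehydrogenase subunit in the complex, lay at -0.39, -0.40, -0.23 and -0.41, with a mean of -0.36 (SE 0.10, limma adjusted p = 0.045).

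Pcx, which makes oxaloacetate from pyruvate, lay at 0.47, 0.43, 0.66 and 0.43, with a mean of 0.50 (SE 0.10, limma adjusted p = 0.018). All 4 arrays thus lay on the same side of 0, with replicate 3 the highest. The catalytic subunit genes Pdha1 (0.18, SE 0.11) and Pdhb (0.27, SE 0.12) did not pass. Nor did the dehydrogenase Dld, which the complex shares with others (-0.32, SE 0.11, limma adjusted p = 0.084). In the joint fit of both ages with a dye term, read as Cy5 over Cy3, Dld did pass, at -0.52 (limma adjusted p = 0.0417). The carrier Mpc1, which brings pyruvate into mitochondria, had a mean of 0.07 (SE 0.13).

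Of 18 tricarboxylic acid cycle genes, 2 passed below 0 at 15 days and none above. Sdhd, a membrane anchor of succinate dehydrogenase, lay at -0.80, -0.77, -0.79 and -0.23, with a mean of -0.65 (SE 0.12, limma adjusted p = 0.014). Idh3b, a subunit of the NAD-dependent isocitrate dehydrogenase, lay at -0.73, -0.71, -0.66 and -0.18, with a mean of -0.57 (SE 0.12, limma adjusted p = 0.021). In both genes replicates 1 to 3 lay close together and replicate 4 nearer to 0. After quantile normalization Sdhb, Suclg1 and Sucla2 passed below 0 as well (limma adjusted p from 0.0398 to 0.0468). Sucla2 passed too with nearby spots subtracted (limma adjusted p = 0.0295) and in a joint fit without a dye term (limma adjusted p = 0.0419). Sdhd was also the 1 pathway gene of 63 that differed between the ages read as Cy5 over Cy3 (1.12, SE 0.19, limma adjusted p = 0.024), where 2.41% of all genes did. With the 15-day sign turned its difference was -0.17, and 0 of 9851 features passed by limma, with 642 (6.52%) at an unadjusted p under 0.05.

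None of 12 glycolysis enzyme genes passed at 15 days, and their means ran from -0.19 (Hk1, the hexokinase that traps glucose in the cell; SE 0.11) to 0.26 (Aldoc, an aldolase; SE 0.10). None of 7 genes of lactate handling passed, with a median of -0.15. Among these, Emb, an escort protein of lactate transporters, had a mean of -0.21 (SE 0.10), and the lactate exporter Slc16a3 a mean of -0.15 (SE 0.12). Of 5 pentose phosphate pathway genes none passed, and Tktl1 (0.44, SE 0.14) and Taldo1 (0.23, SE 0.11), both of its non-oxidative branch, had the smallest p. In alternative fits at 15 days Aldoc did pass, at 0.49 in that joint fit (Cy5 over Cy3, limma adjusted p = 0.037). With nearby spots subtracted Aldoc (0.29, limma adjusted p = 0.038) and Tktl1 (0.54, limma adjusted p = 0.023) passed. Without 15-day replicate 1 Tktl1 passed at 0.63 (limma adjusted p = 0.0224).

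**Figure D3:**
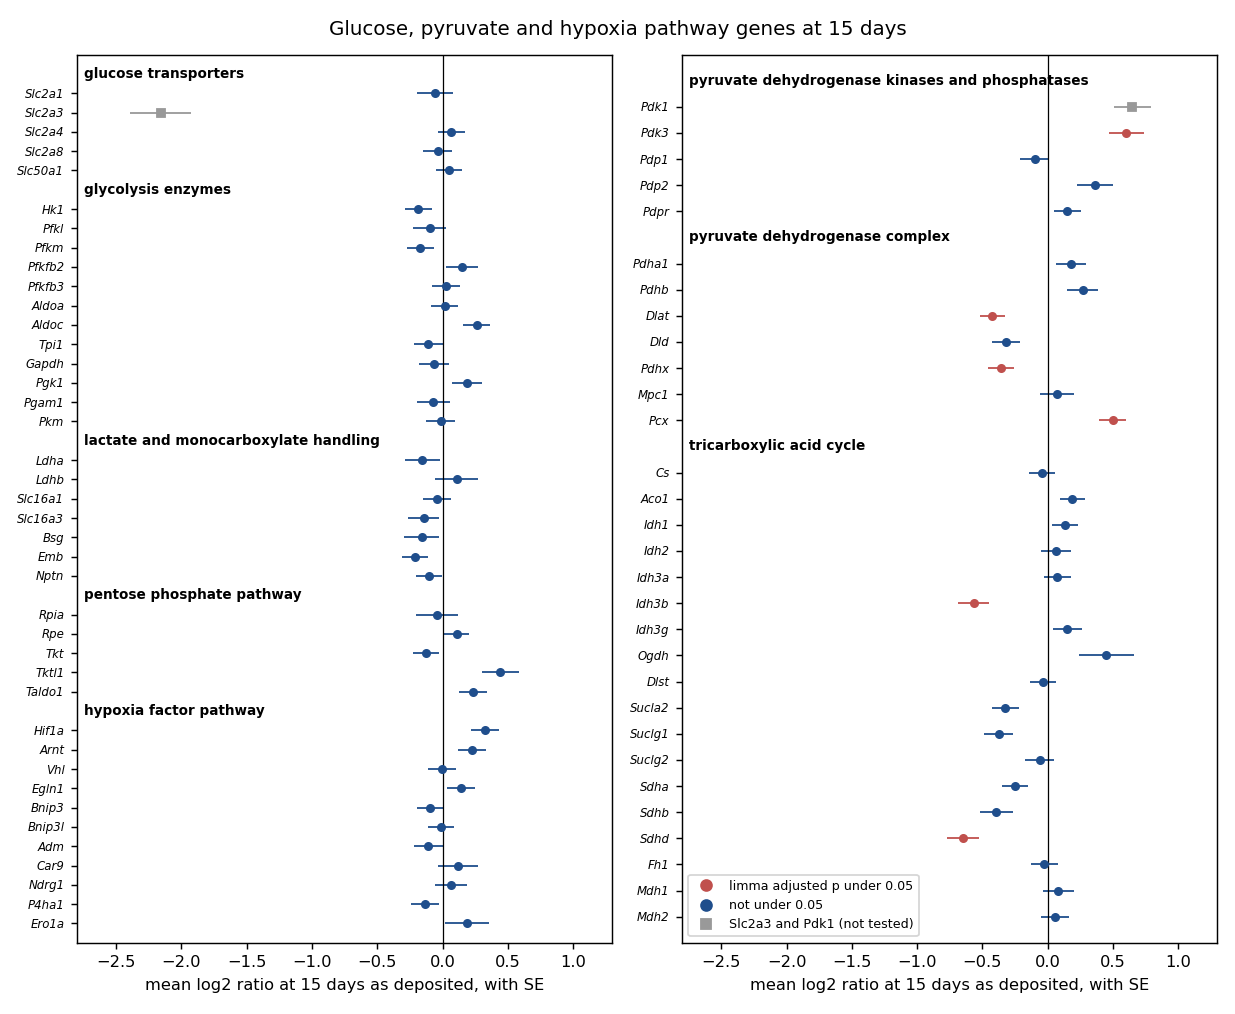
Mean deposited log2 ratio at 15 days with its standard error (bars) for Slc2a3, Pdk1 and 68 other genes of glucose, pyruvate and hypoxia pathways, grouped by list; red points passed a limma adjusted p of 0.05 and grey squares were not tested. Slc2a3 lies at -2.16, outside the range of -0.65 to 0.60 of the 68 other genes, and Pdk1 (0.65) lies beside Pdk3 (0.60).

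The genes most like Slc2a3 were found by the root mean square difference of their log2 ratios over all 9 arrays, among 5380 genes with a value on each. They were Ndufaf3 (0.59), which helps to assemble complex I, Phf7 (0.62), a chromatin reader of germ cells, Asrgl1 (0.62), an asparaginase, Lyar (0.66), a nucleolar protein, and Rsph3a (0.69), a radial spoke protein of cilia. The median over all genes compared was 1.71. As the 5 genes were chosen on these arrays, a course like that of Slc2a3 is set by the choice. Each of these genes lay below 0 on all 4 arrays at 15 days and at 1.06 to 1.55 on 12-day replicate 3, the array on which Slc2a3 was highest. On the 4 other 12-day arrays they lay between -0.50 and 0.31. Slc2a3 exceeded all 5 on replicates 1, 3 and 5.

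Lyar also stands in the list of genes that mark pachytene, the long middle stage of meiotic prophase in spermatocytes. Of 20 such genes 5 were on the arrays, and ratios show whether they differ between the samples but not their levels. At 15 days 3 passed below 0, Lyar (-1.56, SE 0.17), Rsph1 (-1.73, SE 0.17) and Ccnb1ip1 (-0.58, SE 0.11). The limma adjusted p was 0.0013 for Rsph1 and 0.012 for Ccnb1ip1. Lyar was chosen above for its likeness to Slc2a3 on these arrays, so its value is a description. The list was also made with earlier results of these data known, so the count of 3 may be partly set by that choice. Mybl1 (-0.12) and Sycp3 (0.23) did not pass. Of all 6958 genes 7.2% passed below 0. The 3 genes that passed are lower in the knockout if the values are knockout over wild type. If the values are Cy5 over Cy3, these 3 genes are higher in the knockout. Which reading the markers go with was not tested. The median of the 5 markers was -0.78 to -0.41 on the 15-day arrays, and at 12 days it was 0.44 on replicate 3 and -0.45 to 0.26 on the others. Their part in the Slc2a3 ratio was not tested.

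The medians of the other marker lists were smaller in size at 15 days than that of the pachytene list (-0.58). Single genes of these lists, such as Etv5 and Cdh5, had larger ratios than Ccnb1ip1. Of 8 spermatogonial genes 3 passed above 0, Etv5 (1.20), Ccnd1 (0.42) and Uchl1 (0.36), and the median was 0.36. These 3 are higher in the knockout if the values are knockout over wild type, and lower if they are Cy5 over Cy3. Of 9 Sertoli cell genes 0 passed, with a median of 0.14 and the smallest p for Ctsl (0.39) and Wt1 (0.46). Above 0 passed Nr5a1 (0.43) of 7 Leydig cell genes, Col1a1 (0.41) of 7 peritubular genes and Cdh5 (0.78) of 6 endothelial or blood genes. Below 0 passed Lum (-0.57), also of the peritubular list, and Lyz2 (-0.61) of 4 macrophage genes. Over all 6958 genes 4.04% passed above 0 and 7.2% below. These lists too were made with earlier results of these data known, so their counts may be partly set by that choice. The medians of the spermatogonial markers (0.18 to 0.41) and of the endothelial and blood markers (0.09 to 0.24) lay above 0 on all 4 arrays. Those of the macrophage markers (-0.235 to -0.07) lay below 0 on all 4. The Sertoli (-0.04 to 0.25), Leydig (-0.09 to 0.16) and peritubular (-0.09 to 0.20) medians took both signs. Pdk1 lay above 0 on the 3 arrays with a value. The part of these cells in the Pdk1 ratio was not tested.

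For Pdk1 the nearest genes over its 8 arrays, among 5470, were Cybb (0.12), a subunit of the phagocyte oxidase, Pdk3 (0.16), Cetn2 (0.19), a centrin, Tax1bp3 (0.19), a PDZ protein, and Lonrf3 (0.20). The median over all genes compared was 0.55, and that of Pdk1 from 0 was 0.47. Its own kinase paralog was thus the second nearest. Of these 5 genes 4 lie on the X chromosome, against 3.14% of the genes compared, whereas Pdk1 lies on chromosome 2 and Slc2a3 on chromosome 6. None of the 5 genes nearest to Slc2a3 is X-linked. All 5 X-linked genes among the 68 pathway genes (Pdk3, Tktl1, Pgk1, Pdha1 and Idh3g) had means above 0 at 15 days, from 0.15 to 0.60. Above 0 were also 74.5% of 208 X-linked genes and 46.3% of all genes. X linkage was looked at after the nearest genes were seen.

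**Figure D4:**
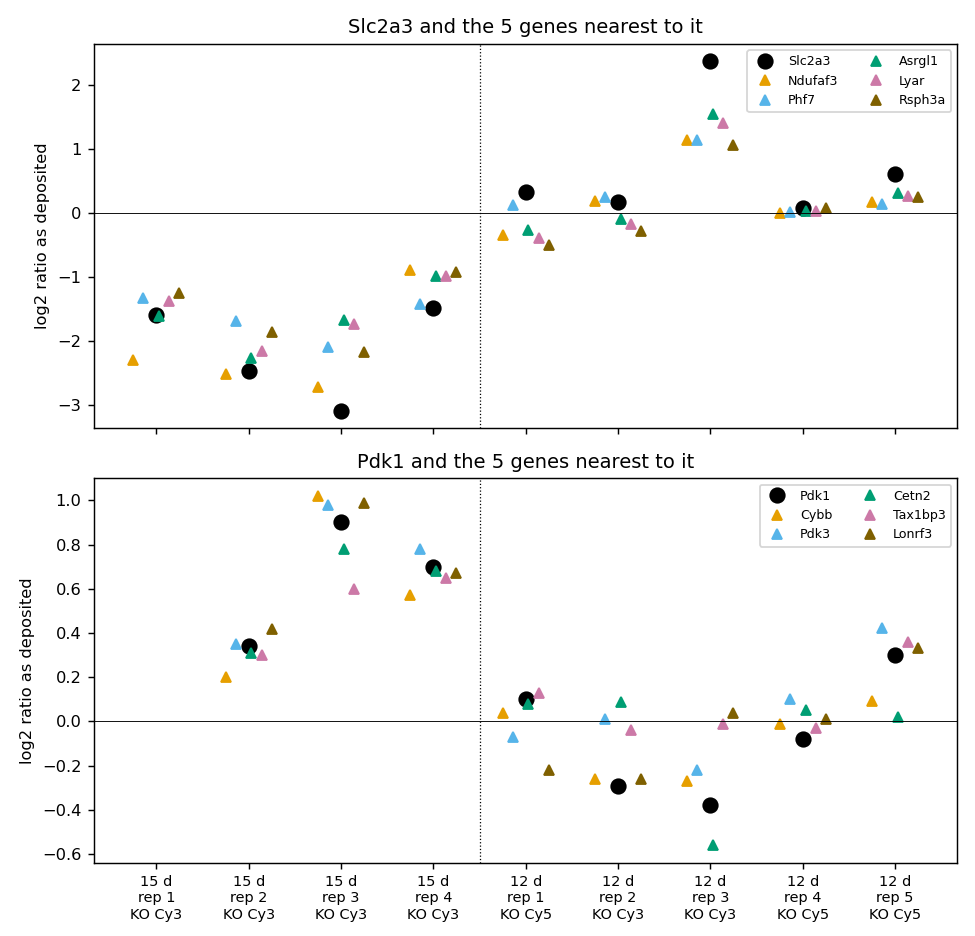
Deposited log2 ratios on each of the 9 arrays of Slc2a3 (top) and Pdk1 (bottom), as black circles, and of the 5 genes with the smallest root mean square difference from each, as triangles shifted sideways. The genes were chosen for nearness on these same arrays. Those near Slc2a3 lie below 0 at 15 days and high on 12-day replicate 3. Those near Pdk1 lie at 0.20 to 1.02 at 15 days.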

How the data were processed

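The design text says that the authors read the slides with a GenePix 4000A scanner and GenePix 3.0 software, median-centred every array and called genes with SAM, which was not used here. The deposited values are log ratios, taken here as log2. The sources used here give neither their log base nor their background correction nor their direction. Spot intensities were not used, so nothing is known here of signal over background, and precision rests on the number of arrays.

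The platform annotation gave exactly 1 gene for 9604 probes, several for 213 and none for 6311. Symbols were updated by Entrez ID through RefSeq (GRCm38.p6), which matched 98.9%. Probes of a gene were averaged, and other probes stayed as features of their own.

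Tests were two-sided and used limma 3.58.1 (R 4.3.3; lmFit, eBayes), with Benjamini-Hochberg adjustment over all features. The 15-day fit set the mean against 0 where 3 or more arrays had a value. The 12-day fit estimated genotype and dye terms together and needed 4 values from both orientations. The age fit took the 9 arrays together and gave both ages the same dye term. Standard errors are limma's. The procedure was tested on simulated data.

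The members and lists were chosen with earlier results of these data known. Named were both genes, the members of each list that passed (or the 2 of smallest p), the direct families of both genes and the 5 genes most alike. Replicates are numbered in order of deposit and pair nothing. Promoter sequences are RefSeq's. Alternatives covered scaling, nearby spots, the dye term, the sign of the 15-day ratios and leaving out arrays.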

Additional observations from a re-analysis of the deposited data

Results flagged for a closer look

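The 12-day replicate 3 value of Slc2a3 (2.36) stood apart from the 4 other 12-day arrays, with a gap of 0.768 of the whole range. The same array stood apart for Phf7 (1.13) and Cetn2 (-0.56). At 15 days replicate 4 stood apart for Sdhd (-0.23) and Idh3b (-0.175), and replicate 3 for Pdhx (-0.23). These are 6 of 57 groups of 4 or 5 arrays looked at. Chance flags about 1 in 20 groups, but the groups include Slc2a3 and genes chosen for their likeness to it or to Pdk1, Phf7 and Cetn2 among them, so the count cannot be read against that rate.

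The knockout effect differed between 15 and 12 days, read as Cy5 over Cy3 and by the limma test of the difference, for Rsph1 (2.33) and Sdhd (1.12), both at a limma adjusted p of 0.024. The differences of Ndufaf3 (2.77), Asrgl1 (2.36), Phf7 (2.33), Lyar (2.17) and Rsph3a (1.95) are given as a description, since these genes were chosen for following Slc2a3 on the same arrays and their direction is set by that choice. With the sign of the 15-day arrays turned no feature passed.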

How the results depend on the processing

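The sign of the 15-day ratios decides the age difference. With it turned, the difference of Slc2a3 was -0.89 and that of Pdk1 0.31, and the count of features that differed between ages went from 246 to 0. That count was 532 with scaled arrays, 807 after quantile normalization, 493 with nearby spots subtracted, 432 with the title number range as a block, 4 at an adjusted p of 0.01 with 1.5-fold, and 5 (without 15-day replicate 3) to 468 (without 12-day replicate 5) with 1 array left out. The 15-day count of 1515 was 242 at that stricter threshold, and 357 (without replicate 3) to 1021 with 1 array left out. Of the pathway genes 6 passed at 15 days, 0 in the joint fit with the sign turned, 10 with nearby spots subtracted and 0 to 4 with 1 array left out.

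Slc2a3 at 15 days, in the deposited sign and with the 12-day dye intercept removed, was -2.96 if the values are Cy5 over Cy3. It was -1.36 if they are knockout over wild type. The knockout over wild type ratios are then 2.96 and -1.36, so the readings differ in direction. At 12 days the knockout part of Slc2a3 was -1.01 to 0.08333 with 1 array left out, the latter without replicate 3. Its age difference was 2.46 without a dye term, 2.33 to 4.52 with 1 array left out, and -1.99 to 0.20 with the 15-day sign turned as well. The age difference of Pdk1 was -0.74 with nearby spots subtracted. The values of both genes kept their direction under centring, scaling and quantile normalization. Single probes were not run, as each gene had 1. Dye removal, its runs with 1 array left out, the runs of the turned sign with 1 array left out, and the scaling and left-out arrays for pathway genes were chosen after seeing the data. Every ratio already sets 1 knockout against 1 wild type sample, and as the labels number no replicates, no further block by replicate was fitted.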
